A study of Mus musculus with 35 samples.

Results

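The regions described here are 500 intervals of the ATAC-seq table of mouse embryonic fibroblasts that were chosen by their own ATAC-seq values as higher with compound 6. ATAC-seq cuts open chromatin with a transposase, so a high read density marks an accessible interval. For each of the 35931 regions on chromosomes 1 to 19, of 36431 in the table, the log2(RPKM + 1) of each treatment was centred on that treatment's median. RPKM is a read count normalised to the length of the region and to the depth of the library. The gap was then the lowest centred value of the 3 treatments with compound 6 minus the highest of the 4 without it. The 500 regions with the largest gaps are the members.

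The cells were fibroblasts of ICR mouse embryos, all collected on day 4 of a chemical reprogramming protocol. The treatments with compound 6 were 6FAE, C6AE and C6FAE, and those without it were CFAE, AE, Basal and Ctr. The letters stand for the chemicals in the medium: C for CHIR99021, a GSK3 inhibitor, F for Forskolin, which raises cAMP, A for AM580, a retinoic acid receptor agonist, and E for EPZ004777, an inhibitor of the histone methyltransferase DOT1L. By these letters all treatments other than Basal and Ctr shared A and E. The sources used here do not define AE, Basal and Ctr further for these assays. ATAC-seq had 2 libraries per treatment, merged into 1 column of the table, and H3K4me3 and H3K27me3 ChIP-seq had 1 library per treatment. The study's methods call the 2 libraries biological replicates for Ctr and C6FAE and do not say so for the other treatments. In bulk cells, a change in a few cells and a smaller change in all of them cannot be told apart.

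Compound 6 is RepSox, an inhibitor of ALK5, the type I receptor for TGF-β. The active receptor phosphorylates SMAD2 and SMAD3, which enter the nucleus with SMAD4 and act on enhancers and promoters together with other transcription factors. In fibroblasts TGF-β is known for driving extracellular matrix and contractile genes, and ALK5 inhibitors are widely used in chemical reprogramming. C6FAE and CFAE were the one pair of treatments that differed in compound 6 alone. C6AE differed from AE by CHIR99021 as well, and 6FAE from AE by Forskolin as well. No gene is named here because positions are on mm9 and the gene tables used here are on another build.

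Members were chosen for a gap, and the gap was small. A gap above 0 was found in 1355 regions (3.77% of 35931). Among the members it ran from 1.32 down to 0.16, with a median of 0.28, that is from 2.50-fold to 1.12-fold with a median of 1.21-fold. It was at least 1 (2-fold) in 3 members and at least 0.5 in 75. The threshold fell in a dense part of the distribution. The last 2 members, chr4:32966276-32967025 and chr9:44528050-44530197, had gaps of 0.1612 and 0.1610. The 2 regions just outside, chr11:52095489-52098163 and chr4:142088579-142089229, had gaps of 0.1608 and 0.1601. The mirrored rule, with the treatments without compound 6 above those with it, gave nearly the same curve, with a largest gap of 1.25, a 500th gap of 0.16 and 1280 regions above 0. The same construction gave a 500th gap of 0.34 for Forskolin and 0.22 for CHIR99021.

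**Figure D1:**
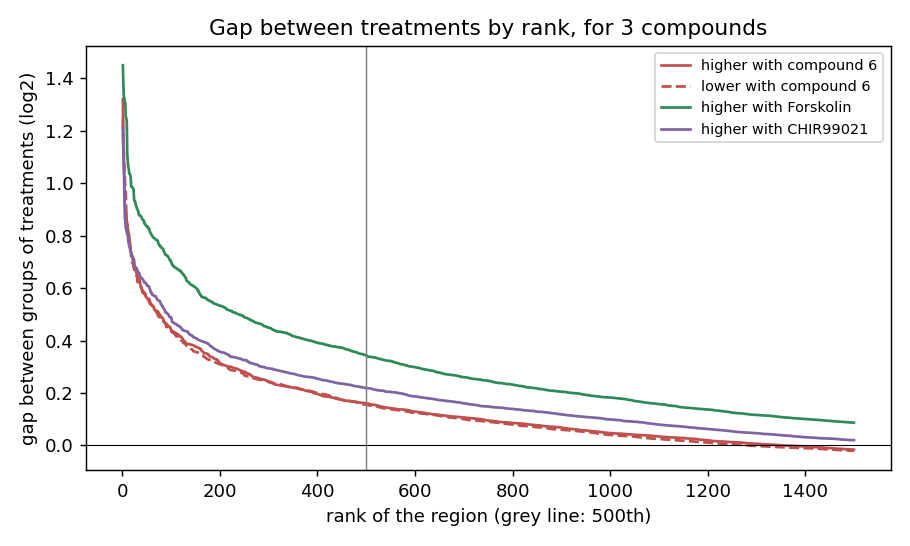
Gap between groups of treatments (log2, vertical) against the rank of the region (horizontal) for regions higher with compound 6, lower with compound 6, higher with Forskolin and higher with CHIR99021. The 2 curves for compound 6 nearly coincide and reach 0.16 at the 500th region, below CHIR99021 at 0.22 and Forskolin at 0.34.

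The values behind the rule, given as a description, were near those of an ordinary region with compound 6 and low without it. With compound 6 the members' median was 14.9 RPKM in 6FAE, 13.1 in C6AE and 20.6 in C6FAE. The median of all regions in the same columns was 14.3, 12.2 and 17.7 RPKM. Without it the members' median was 12.1 RPKM in CFAE, 8.37 in AE, 8.14 in Basal and 6.45 in Ctr. The median of all regions there was 18.5, 16.4, 14.6 and 11.6 RPKM. On the centred log2 scale the members' medians were 0.05, 0.10 and 0.21 in 6FAE, C6AE and C6FAE, and -0.57, -0.89, -0.77 and -0.76 in CFAE, AE, Basal and Ctr. The median member stood at the 64th percentile of all regions in C6FAE and at the 22nd in CFAE, the treatment that lacks compound 6 alone. In C6FAE 8 members were at least 2-fold above the median of all regions, and in all 3 treatments with compound 6 only 2 were. At least 2-fold below the median were 110 members in CFAE, 228 in AE, 176 in Basal and 184 in Ctr, against 6 to 13 in the treatments with compound 6. Of all regions, 11.8%, 16.0%, 11.1% and 13.5% were that low in CFAE, AE, Basal and Ctr, and 8.62% to 13.4% in the treatments with compound 6. The rule used these values. The mean RPKM over all treatments was under the lower quartile of all regions in 224 members.

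**Figure D2:**
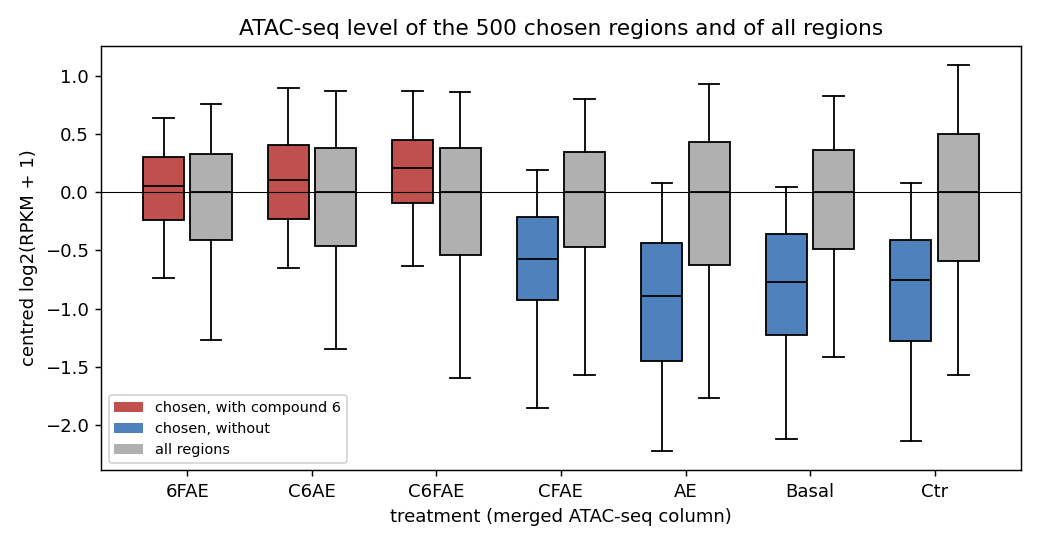
Centred log2(RPKM + 1) (vertical) of the 500 members with compound 6 (red) and without it (blue) and of all 35931 regions (grey) in each merged ATAC-seq column; boxes are quartiles with the median, whiskers the 5th and 95th percentiles. The members' boxes overlap those of all regions in 6FAE, C6AE and C6FAE and lie lower in CFAE, AE, Basal and Ctr.

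The working name of these regions, open only with compound 6, was stricter than the values allow. All but 8 members overlapped a listed peak in at least 1 of the 8 libraries without the compound (0.256% of all regions overlapped none). The authors' peak lists were made at a loose p-value threshold of 0.05. No member had an RPKM of 0 in any column, and the lowest was 0.531 in Ctr. An RPKM above 0 can be background reads and does not by itself show an open region. As deposited, before centring, C6FAE was above all 4 treatments without compound 6 in every member, 6FAE was in 377 members and C6AE in 245. Without centring the gap was above 0 in 219 members. The members are called here regions higher with compound 6.

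The 6 members with the largest gaps were of low or middling signal. At chr13:53432113-53432767, the first, the level was 10.8 RPKM in 6FAE, 9.18 in C6AE and 13.1 in C6FAE against 4.03 in CFAE, 4.24 in AE, 3.02 in Basal and 2.08 in Ctr. At chr4:44497924-44498457 it was 17.9, 8.31 and 12.6 RPKM with compound 6 in the same order, and 5.29, 4.44, 2.06 and 1.45 without it. At chr6:115902372-115903227 it was 15.7, 11.5 and 23.2 RPKM, and 6.26, 6.10, 5.80 and 3.86 without. In these 3 members, the ones with a gap of at least 1, the treatments without compound 6 were all low, with Ctr the lowest in RPKM. On the centred log2 scale CFAE was the lowest at chr6:115902372-115903227, at -1.43 beside -1.37 in Ctr. At chr14:12801618-12803167 the level was 7.82, 7.77 and 19.9 RPKM with compound 6, and 4.16, 3.16, 3.64 and 2.17 without. At chr1:57497538-57498159 it was 20.02, 17.7 and 25.2 RPKM, and 13.2, 5.91, 7.87 and 4.58 without. At chr17:46355796-46356826 it was 14.2, 7.57 and 7.42 RPKM, and 3.67, 3.19, 2.47 and 0.737 without. In the last of these 6FAE was the highest column and C6AE and C6FAE were nearly equal, while at chr14:12801618-12803167 C6FAE was the highest and 6FAE and C6AE were nearly equal.

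The members differed in which treatments decided their gap. The lowest value with compound 6 was that of 6FAE in 208 members, of C6AE in 166 and of C6FAE in 126. The highest value without it was that of CFAE in 235 members, of Basal in 108, of Ctr in 97 and of AE in 60. CFAE thus came closest to the treatments with compound 6. The highest centred column was C6FAE in 236 members, C6AE in 157 and 6FAE in 107 (beside 16.0%, 13.4% and 9.49% of all regions). The lowest was AE in 180, Ctr in 147, Basal in 115 and CFAE in 58 (beside 16.7%, 16.6%, 13.9% and 12.7% of all regions). Within each group of treatments the order was thus the same over all regions, and not particular to the members. Among the first 100 members the median level in CFAE was 9.85 RPKM, and among the last 200 it was 14.4. The median level in C6FAE was 20.5 and 19.9 RPKM in the same groups. These levels are inputs of the gap and only describe it.

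Between the treatments that differ in compound 6 alone, the members' median difference, C6FAE minus CFAE, was 0.73 on the centred log2 scale (quartiles 0.46 and 1.09). It was at least 1 in 151 of 500 members, against 4.28% of all regions, a difference that the rule itself favours. The largest differences were at chr9:72731159-72732285, with 14.4 RPKM in C6FAE and 1.42 in CFAE, at chr3:96515513-96516063, with 23.3 and 3.88, and at chr2:120400549-120401567, with 22.6 and 4.40. The first of these was the sole one in which CFAE was the lowest of all columns. C6AE minus AE had a median of 0.97 and was at least 1 in 238 members (beside 10.4% of all regions), and 6FAE minus AE had a median of 0.86 and was at least 1 in 200 members (beside 9.53% of all regions). CFAE minus AE had a median of 0.27 and was at least 1 in 57 members, 11.4% of them beside 8.81% of all regions. The rule held both of these columns low, so this pair is not free of it. Their spread over all regions also differed, with an interquartile range of 0.82 in CFAE and 1.06 in AE on the centred log2 scale. C6FAE minus C6AE, which adds Forskolin, had a median of 0.06, and C6FAE minus 6FAE, which adds CHIR99021, had a median of 0.12. The rule held all of these columns high and so favoured medians near 0 between them. They do not measure what Forskolin or CHIR99021 does at the members. These pairs share columns, so their values are not separate evidence.

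The single libraries went into the merged columns, so their peaks describe the rule at a finer grain and do not test it. The authors' peak lists were made at a p-value threshold of 0.05 and are long, with 191181 to 523278 ATAC-seq peaks per library. A listed peak overlapped 72.0% to 95.4% of members in the 6 libraries with compound 6 and 49.2% to 92.4% in the 8 without. Of all regions, 66.1% to 91.4% and 75.6% to 94.3% held one. All 6 libraries with compound 6 listed a peak at 291 members (beside 53.5% of all regions). All 8 libraries without it listed a peak at 119 members (beside 52.5% of all regions), and none of the 8 did at 8 members (beside 0.256% of all regions). A peak in all 6 and in at most 1 of the 8 was found at 2 members (beside 0.00835% of all regions), and a peak in all 6 and none of the 8 at 0.

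Those 2 members were chr14:12801618-12803167 and chr2:160768387-160768893. At the first, the fold enrichment over background that MACS gave was 2.05 and 1.89 in the 6FAE libraries, 2.04 and 2.08 in C6AE and 3.49 and 1.78 in C6FAE. The second AE library also listed a peak there, at 2.03. At the second region it was 1.81 and 2.37 in 6FAE, 1.88 and 2.35 in C6AE and 2.95 and 2.14 in C6FAE, and the first AE library listed 2.097. At both regions the AE peak lay within the range of the libraries with compound 6. At the member with the largest gap, chr13:53432113-53432767, only 3 of 6 libraries with compound 6 listed a peak, as did 2 of 8 without.

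Restricted to each library's 20000 peaks of highest score, 14.8% to 56.2% of members held a peak in the libraries with compound 6 and 3.4% to 17.2% in those without. All regions held one in 21.1% to 47.4% and 23.8% to 45.1% of cases. The 2 libraries of a treatment differed widely with compound 6. In 6FAE 74 and 248 members held such a peak (14.8% and 49.6%, beside 21.1% and 46.8% of all regions). In C6AE 120 and 82 did (24% and 16.4%, beside 32.0% and 21.2%), and in C6FAE 281 and 168 (56.2% and 33.6%, beside 47.4% and 35.2%). In CFAE 68 and 86 did (13.6% and 17.2%, beside 40.7% and 45.1%). The first C6AE library, the second 6FAE library and both C6FAE libraries were above all 8 libraries without compound 6, while the first 6FAE library and the second C6AE library fell below the second CFAE library. These last 2 held 1027 and 810 peaks whose listed -log10 q reached 1.3, the fewest of the 14. The second 6FAE library listed 13337, the first C6FAE library 15909 and the CFAE libraries 8537 and 13723. The part of this unevenness in the members' values was not tested.

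**Figure D3:**
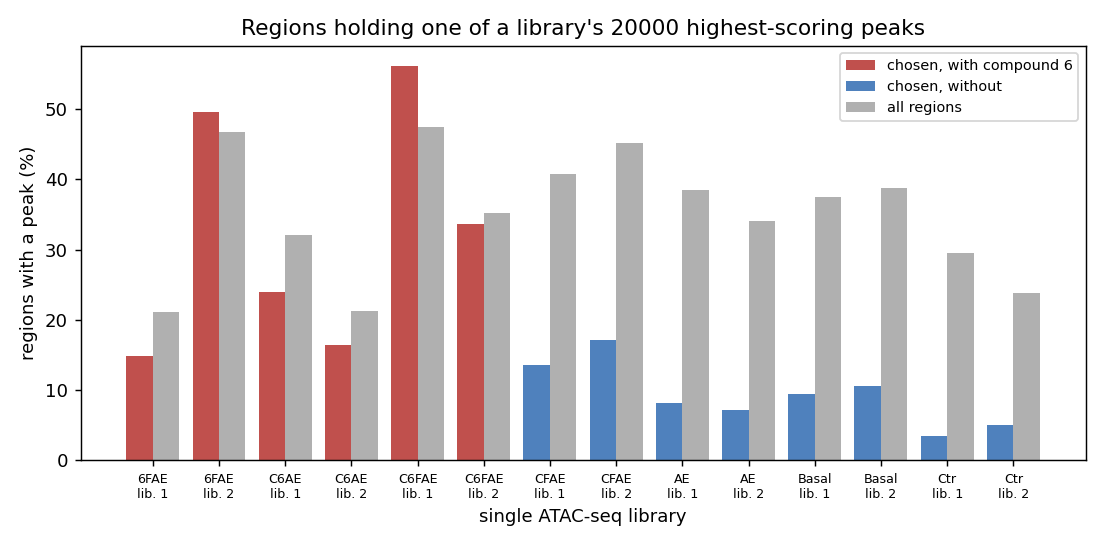
Share of the 500 members (red with compound 6, blue without) and of all regions (grey) that overlap a peak among the 20000 of highest score, in percent (vertical), in each of the 14 single ATAC-seq libraries (horizontal). Members range from 14.8% to 56.2% with compound 6 and from 3.4% to 17.2% without. They are above all regions only in the second 6FAE and the first C6FAE library, and below all regions in every other library.

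The single libraries with compound 6 and those without it did not separate fully at any member. With a region without a listed peak set to 0, the fold enrichment in all 6 libraries with compound 6 exceeded that in all 8 without at 0 members and at 2 of all regions (0.00557%). For the pair that differs in compound 6 alone, both C6FAE libraries exceeded both CFAE libraries at 173 members, against 10.2% of all regions. Both CFAE libraries exceeded both C6FAE libraries at 1 member, against 13.6% of all regions. Across the 35931 regions, the rank correlation between the fold enrichments of the 2 libraries was 0.42 in C6AE and 0.44 in 6FAE, and 0.54 to 0.67 in the other treatments.

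The starts of the table's regions coincided with the starts of listed peaks, and those of the members traced back to few libraries. At 218 members the region began exactly where a peak of the first C6FAE library began (43.6%, against 18.5% of all regions), and at 136 where one of the second 6FAE library did (27.2% against 14.1%). Each of the 8 libraries without compound 6 shared its peak start with 1 to 13 members, and with 2.20% to 12.1% of all regions. The members' median length was 1217 bp, beside 1484 bp for all regions. The regions chosen in the same way as lower with compound 6, for Forskolin and for CHIR99021 had medians of 1110 bp, 1107 bp and 1182 bp, so this was not particular to the members. The 3 longest, chr6:84533200-84541470, chr5:30436948-30443956 and chr7:146572695-146579182, had gaps of 0.20, 0.28 and 0.18. One member stood apart by level: chr17:39979910-39985894 had 1756 RPKM in Ctr and 2928 in C6FAE, while the next highest member had 43.5 in C6FAE. Its gap was 0.17.

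Members were spread over the genome. Each chromosome held 13 to 42 of them, or 0.846% of its regions on chromosome 17 to 1.82% on chromosome 9. Only 6 members lay within 10 kb of another, in 3 pairs. The closest pair, chr5:38208029-38210415 and chr5:38212006-38212902, had 19.7 and 15.6 RPKM in C6FAE and 14.5 and 7.05 in CFAE. The pair on chromosome 4, chr4:99716538-99718932 and chr4:99724453-99725014, had 33.9 and 32.0 RPKM in C6FAE and 21.5 and 16.0 in CFAE. In the pair on chromosome 13, chr13:63271214-63274139 and chr13:63283009-63283951, C6FAE was at 18.96 and 20.2 RPKM and CFAE at 13.8 and 14.3. Within 100 kb of another member lay 44.

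The histone marks were not used by the rule. H3K4me3 marks active and poised promoters, and H3K27me3 is laid down by the Polycomb complex PRC2 at repressed developmental genes. A peak counted as enriched where its listed -log10 q reached 1.3. An enriched H3K4me3 peak was present at 94 members in 6FAE, 104 in C6AE, 93 in C6FAE, 126 in CFAE, 113 in AE and 107 in Basal. This is 18.6% to 25.2% of members, against 33.7% to 40.2% of all regions. No enriched H3K4me3 peak in any of the 6 libraries was found at 344 members (beside 52.9% of all regions), and 79 had one in all 6 (beside 31.3% of all regions). Among regions of 1000 bp or more the shares were 26.7% to 35.0% of members and 46.6% to 53.8% of all regions, and among shorter ones 4.06% to 10.2% and 7.26% to 12.4%. The 500 regions chosen in the same way for CHIR99021 stood at 17.6% to 24.2%, near the members, and those for Forskolin at 5.2% to 11.4%.

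An enriched H3K27me3 peak was found at 60 members in C6AE, 52 in AE and 53 in Basal, which is 12%, 10.4% and 10.6%, against 6.46%, 5.16% and 3.97% of all regions. In the 3 libraries with Forskolin it was found at 2 members in 6FAE, 1 in C6FAE and 1 in CFAE. Those libraries listed 74, 82 and 136 enriched peaks in the whole genome, and the C6AE, AE and Basal libraries 17766, 4115 and 6100. The share above that of all regions was thus seen both with compound 6, in C6AE, and without it, in AE and Basal. In all 3 of C6AE, AE and Basal 37 members held an enriched peak (beside 2.91% of all regions). Among regions of 1000 bp or more the shares were 14.5%, 12.5% and 13.9% of members in C6AE, AE and Basal, against 6.46%, 5.45% and 4.38% of all regions. The regions chosen for CHIR99021 had 8.4%, 7.6% and 5.8% in the same libraries, and those for Forskolin 3.6%, 2.4% and 2.2%. Of the members, 56 held enriched peaks of both marks, each in at least 1 library (beside 5.51% of all regions), and 321 held neither (beside 50.3% of all regions). These shares are descriptions of single libraries, without a test of the difference.

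**Figure D4:**
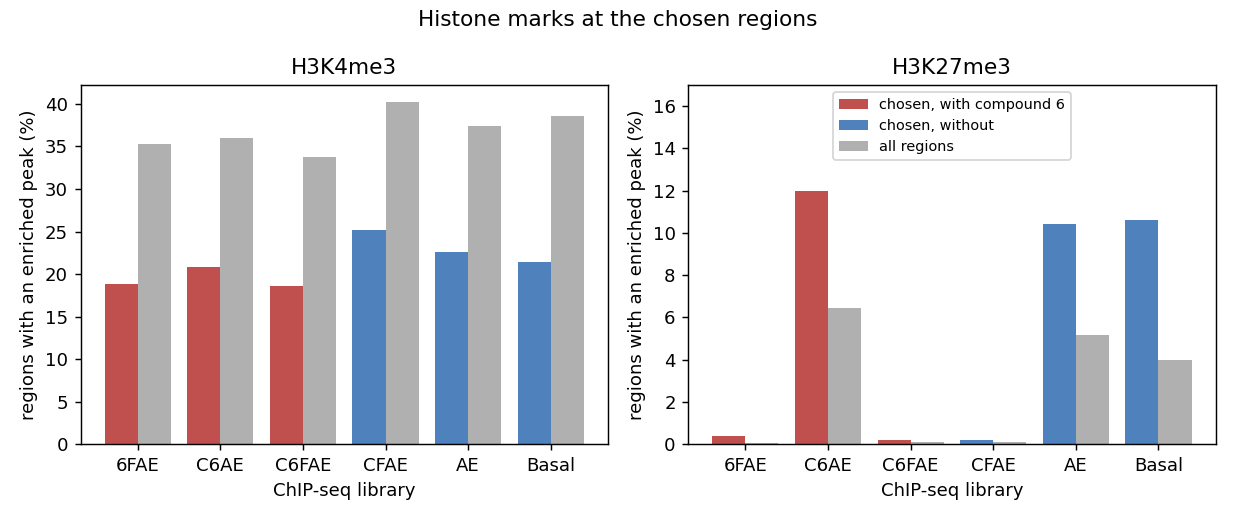
Share (percent, vertical) of the 500 members and of all 35931 open regions (grey) with an enriched H3K4me3 (left) or H3K27me3 (right) peak in each ChIP-seq library, with compound 6 in red and without it in blue. Members are at 18.6% to 25.2% for H3K4me3, below all regions in each library, and at 10.4% to 12% for H3K27me3 in C6AE, AE and Basal, above all regions.

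The histone tables allowed a test that is independent of the rule, 3 libraries with compound 6 (6FAE, C6AE, C6FAE) against 3 without (CFAE, AE, Basal), fitted with limma over all rows of each table. The libraries of a group are different treatments, so the spread behind the p-values includes their other chemicals. The groups were also not balanced for these. CHIR99021 was in C6AE and C6FAE with compound 6, and only in CFAE without it. Forskolin was in 6FAE and C6FAE with compound 6, and only in CFAE without it. By its label only Basal lacked A and E. These chemicals thus enter the difference too, and their part in it was not separated in this fit. A row of the H3K4me3 table overlapped 75 members (15%, against 30.9% of all open regions), and 89 members (17.8% against 9.38%) overlapped a row of the H3K27me3 table.

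No member passed the test for H3K4me3. The difference with minus without compound 6 was above 0 in 54 of the 75 members. The members' median difference was 0.16 on the log2 scale, beside -0.02 over all 12566 rows and -0.03 over the open regions with a row. At an adjusted p under 0.05 limma called 0 members higher (beside 0% of all rows) and 0 lower (beside 0% of all rows), and the smallest adjusted p was 0.725. At an unadjusted p under 0.05, 8 members were higher and 1 lower, which is 10.7% and 1.33% of the 75, beside 3.02% and 3.86% of all rows. The 8 higher members became 24 without 6FAE (beside 7.88% of all rows), 6 without C6AE (beside 4.58%) and 4 without AE (beside 1.62%). They became 3 without Basal (beside 1.27%) and 0 without centring (beside 0.111%). The regions chosen in the same way for Forskolin (16 with a row) and CHIR99021 (73 with a row) had median differences of 0.21 and 0.09. A median above 0 was thus not particular to the members. The regions chosen as lower with compound 6 (65 with a row) had a median of -0.11. The 3 libraries with compound 6 lay above the 3 without at 10 members (beside 4.9% of all rows) and below at 6 (beside 7.94% of all rows).

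The H3K4me3 difference was largest at chr19:16946799-16947846, at 1.18 (SE 0.61). The levels were 3.38 RPKM in 6FAE, 27.6 in C6AE and 3.95 in C6FAE against 2.52 in CFAE, 3.94 in AE and 3.93 in Basal, with C6AE far above the rest. C6AE was also the highest in the next 3. At chr3:152643766-152644518 the difference was 1.02, with 40.4 RPKM in C6AE and 7.77 to 17.6 elsewhere. At chr7:29075036-29076562 it was 0.96, with 33.1 RPKM in C6AE and 6.47 to 9.67 elsewhere. At chr9:52486127-52488203 it was 0.69, with 33.8 RPKM in C6AE and 5.19 to 10.7 elsewhere. The C6AE library was the shallowest of the H3K4me3 set, with 745089 tags against 3296306 to 7103488 in the other 5, and had the highest median over all rows, 24.8 RPKM. Without it the members' median difference was 0.07, beside -0.01 over all rows. The differences at the other end were smaller, -0.52 (SE 0.26) at chr11:62352075-62353207, -0.42 at chr12:70682860-70684594, -0.41 at chr4:150226743-150230333 and -0.38 at chr7:4640434-4642126. At the first of these the levels were 8.82, 10.9 and 10.7 RPKM with compound 6 and 15.6, 18.1 and 19.3 without, with no overlap before or after scaling.

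No member passed the test for H3K27me3 either. The difference was below 0 in 75 of the 89 members. The members' median difference was -0.21, beside -0.20 over the 3372 open regions with a row and -0.08 over all 19224 rows. It was -0.19 and -0.24 for the regions chosen for Forskolin and CHIR99021, and -0.14 for those chosen as lower with compound 6. limma called 0 members higher (beside 0% of all rows) and 0 lower (beside 0% of all rows) at an adjusted p under 0.05, with a smallest adjusted p of 0.814. At an unadjusted p under 0.05, 0 members were higher and 10 lower, which is 11.2% of the 89, beside 1.82% and 2.86% of all rows. The share over the open regions with a row was not computed. The 3 libraries with compound 6 lay above the 3 without at 2 members (beside 4.15% of all rows) and below at 12 (beside 7.9% of all rows).

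The H3K27me3 difference was lowest at chr6:84533200-84541470, the longest member, at -1.14 (SE 0.41). The levels there were 3.53, 1.41 and 2.05 RPKM in 6FAE, C6AE and C6FAE, and 3.67, 6.23 and 11.4 in CFAE, AE and Basal. It was -0.99 (SE 0.24) at chr9:30729143-30730510, -0.91 at chr6:53767298-53772023 and -0.79 at chr10:121885014-121887312. At the last of these the 6FAE library was at 0 RPKM. In all 4 the Basal and AE libraries were the highest of the 6. The differences at the other end were 0.82 (SE 0.70) at chr17:39979910-39985894, the member of extreme ATAC-seq level, 0.77 at chr6:143386072-143388373, 0.63 at chr8:73235773-73236931 and 0.59 at chr14:61247895-61248867. The latter pair rested on the 6FAE library, with 14.3 and 16.9 RPKM against at most 6.12 elsewhere, and that library held 633980 tags, the fewest of the H3K27me3 set. Without it the members' median difference was -0.39, beside -0.06 over all rows, and 28 members were lower at an unadjusted p under 0.05, beside 6.72% of all rows. The 10 lower members became 17 without CFAE (beside 3.93% of all rows), 7 without C6FAE (beside 3.50%) and 5 without C6AE (beside 2.39%). They became 2 without AE (beside 0.895%) and 1 without Basal (beside 0.525%). The count thus depended on the library left out, and without AE or Basal the share of all rows fell too. These shares and the median without 6FAE were not computed over the open regions with a row. With all 6 libraries the median of those regions was -0.20, beside -0.21 for the members.

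**Figure D5:**
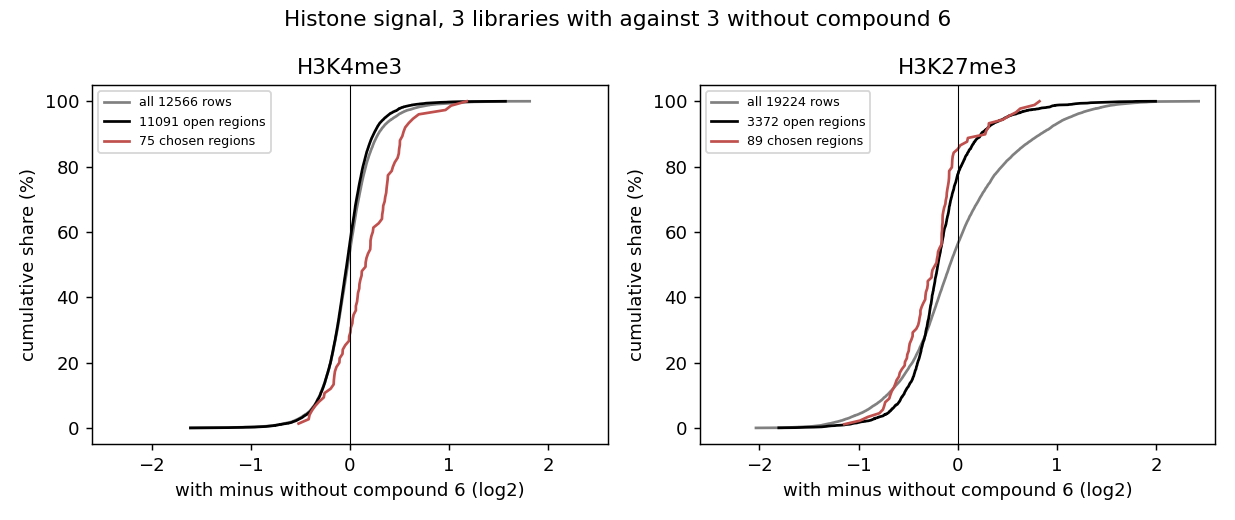
Cumulative share (percent, vertical) of the difference with minus without compound 6 (log2, horizontal) in H3K4me3 (left) and H3K27me3 (right) for members with a row (red), open regions with a row (black) and all rows (grey). The members' medians are 0.16 for H3K4me3, beside -0.03 for open regions with a row, and -0.21 for H3K27me3, beside -0.20.

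For C6FAE against CFAE alone, with 1 library each and no test, the members' median H3K4me3 difference was 0.12, beside 0.00 over all rows. It was above 0 in 53 of 75 members, beside 50.0% of all rows. The median H3K27me3 difference was -0.08, beside 0.01. The H3K27me3 difference was below 0 in 51 of 89 members and above 0 in 38, beside 51.0% of all rows above 0. For C6AE against AE, which adds CHIR99021 too, the medians were 0.30 for H3K4me3, beside -0.05 over all rows, and -0.63 for H3K27me3, beside -0.17. For 6FAE against AE, which adds Forskolin too, they were -0.04, beside -0.02, and -0.18, beside -0.19. CFAE against AE does not differ in compound 6. Its medians were 0.04 for H3K4me3, beside -0.02, and -0.39 for H3K27me3, beside -0.07, with 73 of 89 members below 0. Whether the H3K27me3 difference of the members is larger in C6AE against AE, the pair without Forskolin, was not tested.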

How the data were processed

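Per the submitters' processing notes, reads were handled with Bowtie2, MACS2 and deepTools 3.1.0 on mm9. The RPKM tables were made by the authors as the mean over bins of each region, with the ATAC-seq libraries of a treatment merged. Per the file headers, peaks were called by the authors for every library on its own (MACS 2.1.2, p 0.05, no local background). The deposited lists give the tag pileup, the -log10 p and -log10 q, and the fold enrichment over the modelled background. The headers state that q is not calculated, yet the column holds values, which were used as listed. Tags per library were 3346418 to 8764791 for ATAC-seq and 633980 to 7103488 for ChIP-seq.

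A member took the histone row sharing the most bases. Rows were fitted with limma 3.58.1 (R 4.3.3) on log2(RPKM + 1), with column medians made equal and a mean-variance trend, and p-values were adjusted over the whole table by Benjamini-Hochberg. The routine was tested on simulated data. Any shared base counted as overlap. For 3 ChIP-seq samples the title says control and the treatment label says C6FAE, so they entered no comparison. Regions were named by the largest gaps, the threshold, the largest C6FAE minus CFAE differences, length, the peak pattern by library, extreme histone differences and neighbouring pairs. Members and criteria were chosen with earlier results of these data known. The level of chr17:39979910-39985894, the shared peak starts and the comparison of fold enrichments between libraries were added after the values were seen. Sequences and genes of mm9 were not analysed here.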

Additional observations from a re-analysis of the deposited data

Results flagged for a closer look

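The ChIP-seq libraries titled as control, whose labels give the treatment C6FAE, entered no comparison, and both held signal at the regions higher with compound 6. An enriched H3K4me3 peak was present at 97 of the 500 members (19.4%), beside 34.9% of all open regions. An enriched H3K27me3 peak was present at 23 members (4.6%), beside 1.43% of all open regions, in a library that listed 908 enriched peaks. The C6FAE library listed 82 such H3K27me3 peaks, and the AE and Basal libraries 4115 and 6100.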

How the results depend on the processing

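The gap of the 500th region was 0.17 with a pseudocount of 0.1, 0.10 with 10, 0.14 after quantile normalization, 0.19 when the top 10% of regions by mean RPKM set the centre, 0.10 when regions in the lowest quartile of mean RPKM were dropped, and -0.025 without centring. Of the 500 members, 235 stayed among the 500 highest gaps without centring and 276 without the lowest quartile, which held the other members. With any of the 7 treatments left out, the 500th gap was 0.22 to 0.59 and 126 to 357 members stayed. The lowest count was without CFAE, followed by 227 without C6AE, 240 without C6FAE, 241 without 6FAE, 301 without Ctr and 326 without Basal. Under the remaining settings 404 to 499 stayed. Members at least 2-fold higher in C6FAE than in CFAE numbered 24 with a pseudocount of 10 (beside 0.468% of all regions). Without the lowest quartile they numbered 50 (beside 1.84% of the regions kept).

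The count of members with a peak in all 6 libraries with compound 6 depended on the peaks used. It fell to 11 among the 20000 peaks of highest score (beside 7.73% of all regions). It was 1 where -log10 q reached 1.3 (beside 0.674%) and 50 where the peak covered 0.5 of the region (beside 5.69%). Leaving out libraries gave 295 to 381 (beside 54.2% to 72.8% of all regions). Without the first 6FAE and second C6AE libraries, a choice made after the data were seen, it was 437 (beside 77.3%). The count with a peak in all 6 and in at most 1 of the 8 was 1, 0 and 2 under the same stricter settings, 2 to 54 with libraries left out (35 without the first library of each treatment, 54 without the second, 8 without the first CFAE library, 6 without the second C6AE library and at most 5 without any other), and 11 without that pair of libraries.

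limma called 0 members under each of 13 alternatives for either mark. The median H3K4me3 difference of members was 0.07 to 0.21, and -0.067 without centring, where the median of all rows was -0.25. The median H3K27me3 difference was -0.39 to -0.10. In simulated H3K4me3 data, 59 of 100 rows changed by 1 on the log2 scale and 91 of 100 changed by 2 were called. In simulated H3K27me3 data, 6 of 100 and 65 of 100 were. Unchanged rows called numbered 5 for H3K4me3 and 0 for H3K27me3. The simulated spread was capped, so the most variable rows were simulated with less spread than they had. No paired analysis was possible because libraries are merged in the ATAC-seq columns and each ChIP-seq group has 1 library. Merged columns give no error of their own, so single gaps near 0.16 cannot be set against replicate spread.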

Other observations

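Of the members, 41 had a row in both histone tables. In 34 of these the difference with minus without compound 6 was above 0 for H3K4me3 and below 0 for H3K27me3 (82.9%), beside 57.9% of the 1510 open regions with both rows. Across the 41 members the 2 differences had a Pearson r of -0.05 and a Spearman rho of -0.07, and across the 1510 regions -0.13 and -0.11. These regions share the treatments, and this count was added after the values were seen. At chr9:30729143-30730510 the H3K4me3 difference was 0.59 and the H3K27me3 difference -0.99. At chr7:29075036-29076562 they were 0.96 and -0.74, and at chr6:53767298-53772023 they were 0.56 and -0.91. None of these passed the limma test after adjustment over the whole table.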
